A study of Mus musculus with 2 samples.

Results

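A set of 9 genes known mainly for neural adhesion and synapses was followed in the nuclei of regenerating mouse liver. They are Sntg1, Grm8, Dlgap1, Ncam2, Nrxn3, Srgap3, Pclo, Cacna1d and Rbfox1, 9 of the 32286 genes in the deposited count table. They were chosen by symbol because earlier values of these same libraries showed most of them lower in Cox10-/- hepatocyte nuclei, or high in stellate nuclei, so those values are given as descriptions. All 9 were found, and all 9 passed the minimum of 20 UMIs over both hepatocyte sums (a UMI, or unique molecular identifier, marks 1 captured transcript).

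At a synapse, adhesion molecules such as neurexins and neural cell adhesion molecules hold the facing membranes together. Receptors and calcium channels carry the signal, and scaffold proteins tether them beneath the membrane or mark the zone where vesicles are released. In liver, stellate cells store vitamin A and make matrix, and they express a number of genes first studied in neurons, whereas hepatocytes carry out the metabolic work of the organ.

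The Cox10-/- and the wild-type library each came from 1 regenerating liver, and all mice carried a floxed allele of Cox10, a gene needed to assemble mitochondrial complex IV. At 4 weeks before a 70% partial hepatectomy they received AAV8-Cre or AAV8-GFP, vectors of an adeno-associated serotype that enters mainly hepatocytes; which animal received which is not spelled out, and the labels give dissection at 4 days in the treatment protocol and at 4 weeks in the sample characteristics. Livers were perfused and digested, the suspension was strained at 70 µm, and nuclei were profiled by droplet 3' sequencing. With 1 library per genotype no comparison could be tested: every ratio describes 2 libraries, and the 95% intervals in parentheses cover counting error only.

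The Cox10-/- library held 5167 nuclei and 14476400 UMIs and the wild-type library 5448 nuclei and 17703804 UMIs. At most 10% mitochondrially encoded UMIs was allowed, which kept 3136 Cox10-/- nuclei (60.7%) and 1542 wild-type nuclei (28.3%). Nuclei with Cps1, which commits ammonia to the urea cycle, at 0.5% or more of their UMIs were taken as hepatocyte nuclei. They numbered 1001 in the Cox10-/- library (4006140 UMIs, median 3242 per nucleus) and 1443 in the wild-type library (6929733 UMIs, median 4477). Their median mitochondrially encoded share was 4.82% in Cox10-/- and 7.82% in wild-type nuclei. All 15 hepatocyte markers were present in both sums, at 44142 CPM (UMIs per 1000000 of the sum) in Cox10-/- and 35598 CPM in wild-type nuclei. Cox10 itself stood at 47.4 CPM in Cox10-/- and 35.6 CPM in wild-type hepatocyte nuclei; the labels do not say which exons are deleted, so 3' counts do not check the genotype. The libraries shared 7 barcodes, none of them among hepatocyte nuclei.

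A few hepatocyte nuclei went against their label. By clustering without the 9 genes, 947 of the 1001 Cox10-/- and 1386 of the 1443 wild-type hepatocyte nuclei lay in hepatocyte-like clusters, while 8 Cox10-/- and 7 wild-type nuclei lay in stellate-like clusters. The summed level of the 15 stellate markers in hepatocyte nuclei was 223 CPM in Cox10-/- (15 detected, led by Reln at 94.1 CPM) and 41.9 CPM in wild-type nuclei (14 detected, Col1a1 at 0, led by Reln at 29.15 CPM). Values for Sntg1, Nrxn3, Rbfox1 and Srgap3 are given also for the nuclei that met both criteria. In those nuclei most of the stellate list remained, at 188 CPM in Cox10-/- and 27.2 CPM in wild-type nuclei. A list of 14 immediate early and handling genes stood at 3260 CPM in Cox10-/- and 1214 CPM in wild-type hepatocyte nuclei; its part in the results was not tested.

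Promoter windows of Ncam2, Pclo, Srgap3, Cacna1d, Dlgap1 and Grm8, which stood lower in Cox10-/- hepatocyte nuclei, are shown so that their starts can be compared; 2 further Grm8 windows, with 10 and 2 CpG, are not printed. RefSeq (GRCm38.p6) gave 15 promoter windows for 8 of the 9 genes, each from 250 bases before to 50 bases after a transcript start. Capitals mark GGGCGG (the GC box), TATAAA (the TATA box), CCAAT (the CCAAT box), CACGTG (an E-box), TGTTTAC (a forkhead motif) and GGACAG (part of the RE1 element of neural genes), searched on both strands.
Ncam2, chr16:81200447-81200746, plus strand: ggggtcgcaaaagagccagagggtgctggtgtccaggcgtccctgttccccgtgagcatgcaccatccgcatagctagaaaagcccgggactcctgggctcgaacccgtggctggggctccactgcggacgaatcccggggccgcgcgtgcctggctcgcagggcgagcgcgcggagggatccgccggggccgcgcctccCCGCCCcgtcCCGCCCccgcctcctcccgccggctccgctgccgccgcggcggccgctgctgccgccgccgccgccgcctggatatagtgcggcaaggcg
Pclo, chr5:14514668-14514967, plus strand: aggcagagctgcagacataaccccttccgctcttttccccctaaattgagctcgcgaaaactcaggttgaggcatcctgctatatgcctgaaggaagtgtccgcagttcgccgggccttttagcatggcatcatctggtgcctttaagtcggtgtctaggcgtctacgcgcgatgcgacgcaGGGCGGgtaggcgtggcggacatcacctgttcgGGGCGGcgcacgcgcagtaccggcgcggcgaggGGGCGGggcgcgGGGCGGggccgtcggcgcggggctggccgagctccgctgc
Srgap3, chr6:112947217-112947516, minus strand: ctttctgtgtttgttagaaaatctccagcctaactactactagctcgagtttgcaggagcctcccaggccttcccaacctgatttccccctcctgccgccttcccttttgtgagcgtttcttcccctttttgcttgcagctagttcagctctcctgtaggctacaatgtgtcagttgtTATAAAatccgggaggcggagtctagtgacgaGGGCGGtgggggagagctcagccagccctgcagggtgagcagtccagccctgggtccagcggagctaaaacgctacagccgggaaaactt
Cacna1d upstream start, chr14:30491107-30491406, minus strand: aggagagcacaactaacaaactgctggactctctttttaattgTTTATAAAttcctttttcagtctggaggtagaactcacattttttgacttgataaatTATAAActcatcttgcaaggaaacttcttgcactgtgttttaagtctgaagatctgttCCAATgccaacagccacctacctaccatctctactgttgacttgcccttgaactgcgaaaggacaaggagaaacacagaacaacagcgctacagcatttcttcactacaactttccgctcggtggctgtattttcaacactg
Cacna1d downstream start, chr14:30353437-30353736, minus strand: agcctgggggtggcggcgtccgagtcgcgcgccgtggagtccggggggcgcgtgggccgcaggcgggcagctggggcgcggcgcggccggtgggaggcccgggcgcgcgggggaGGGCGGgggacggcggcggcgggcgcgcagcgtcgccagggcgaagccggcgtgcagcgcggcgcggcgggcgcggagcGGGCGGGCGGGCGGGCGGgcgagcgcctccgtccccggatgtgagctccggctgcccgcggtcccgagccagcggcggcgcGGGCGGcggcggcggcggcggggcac
Dlgap1 upstream start, chr17:69968823-69969122, plus strand: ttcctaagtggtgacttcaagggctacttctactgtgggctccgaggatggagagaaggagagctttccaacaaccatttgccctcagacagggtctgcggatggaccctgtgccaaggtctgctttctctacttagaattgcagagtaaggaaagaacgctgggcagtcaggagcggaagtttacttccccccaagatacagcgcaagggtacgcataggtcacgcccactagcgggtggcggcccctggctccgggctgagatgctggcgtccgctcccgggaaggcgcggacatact
Dlgap1 internal start, chr17:70561497-70561796, plus strand: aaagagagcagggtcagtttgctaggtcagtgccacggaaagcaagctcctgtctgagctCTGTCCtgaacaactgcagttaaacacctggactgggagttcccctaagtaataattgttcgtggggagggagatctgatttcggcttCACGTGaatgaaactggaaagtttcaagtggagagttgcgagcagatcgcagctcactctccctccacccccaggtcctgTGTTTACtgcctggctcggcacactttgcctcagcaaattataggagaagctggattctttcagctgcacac
Grm8 upstream start, chr6:28135097-28135396, minus strand: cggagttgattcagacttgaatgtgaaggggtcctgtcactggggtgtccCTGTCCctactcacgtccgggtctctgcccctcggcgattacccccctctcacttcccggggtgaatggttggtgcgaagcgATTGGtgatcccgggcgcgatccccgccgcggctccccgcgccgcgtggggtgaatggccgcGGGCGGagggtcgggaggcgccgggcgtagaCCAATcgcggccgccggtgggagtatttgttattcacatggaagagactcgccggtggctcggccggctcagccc

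The Ncam2 and Pclo windows held 41 and 35 CpG dinucleotides, against a median of 7 over 32851 promoter windows, with 2 GC boxes in the Ncam2 and 4 in the Pclo window. The Srgap3 window, with 10 CpG, held 1 TATA box and 1 GC box. Cacna1d had a CpG-poor upstream start (4 CpG, with TATA and CCAAT boxes) and a downstream start with 63 CpG. The upstream Grm8 window, with 33 CpG, held a GC box, CCAAT boxes and the RE1 part, and the upstream Dlgap1 window, with 15 CpG, held none of the motifs. The GC box was found in 6 of the 15 member windows and in 35.7% of all windows. The forkhead motif was found in 1 member window, the internal start of Dlgap1, and in 3.65% of all windows. CAAAGTC, part of the site bound by HNF4-type receptors, was found in none of the 15 and in 4.44% of all windows. These matches describe letters in a window and nothing about binding.

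All 9 genes are long. They span 229 kb (Srgap3) to 1612 kb (Nrxn3) in GENCODE M21 (mm10), and each was longer than at least 95.7% of the genes tested. Since nuclear RNA is largely unspliced, levels between genes are set side by side per 100 kb of span. This takes introns to have been counted, which the sources used here do not give, and the scaling with span was not tested. In wild-type hepatocyte nuclei, CPM per 100 kb ran from 75.6 for Ncam2 through 31.0 for Dlgap1, 22.2 for Grm8 and 17.5 for Sntg1 to 12.0 for Cacna1d, 11.6 for Pclo and 11.1 for Srgap3. Nrxn3, at 0.278, and Rbfox1, at 0.0851, were far below the other 7. In Cox10-/- hepatocyte nuclei Ncam2 again led, at 46.3, and Grm8 (7.26) and Dlgap1 (6.36) followed.

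In hepatocyte nuclei, 6 of the 9 genes (Sntg1, Grm8, Dlgap1, Srgap3, Pclo and Cacna1d) were at least 2-fold lower in the Cox10-/- than in the wild-type library, and 2 (Nrxn3 and Rbfox1) were at least 2-fold higher. Of 11563 genes tested, 5.80% were at least 2-fold lower and 10.0% at least 2-fold higher. The genes were chosen on this contrast, so nothing is read from these counts. The median log2 ratio of the 9 genes was -2.20, beside 0 over all genes tested.

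**Figure D1:**
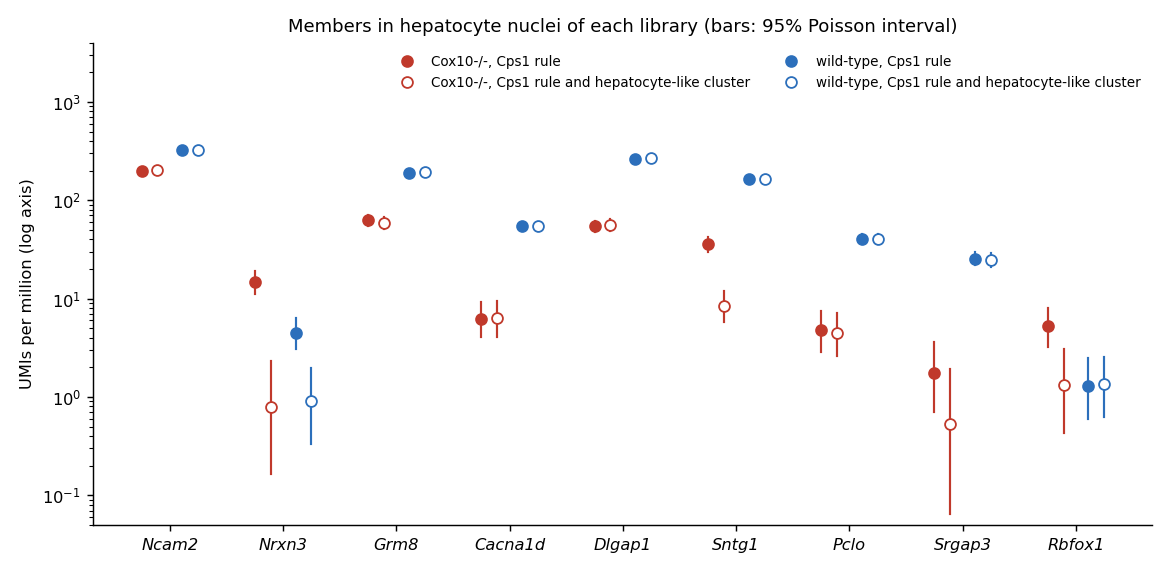
CPM of the 9 genes in hepatocyte nuclei of the Cox10-/- library (red) and the wild-type library (blue), on a log axis; filled points use the Cps1 rule, open points also require a hepatocyte-like cluster, and bars are 95% Poisson intervals. Sntg1 in Cox10-/- nuclei moves to 8.46 CPM with both criteria, against 35.7 CPM with the Cps1 rule alone, while Ncam2, Dlgap1, Grm8, Pclo and Cacna1d hardly move.

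Among the adhesion molecules, Ncam2, a neural cell adhesion molecule of the immunoglobulin family, was the member with the most UMIs in hepatocyte nuclei. It stood at 197 CPM (790 UMIs) in Cox10-/- nuclei and 322 CPM (2231 UMIs) in wild-type nuclei, 1.63-fold lower in Cox10-/- (1.505 to 1.77). It was detected in 35.1% of Cox10-/- and 59.1% of wild-type nuclei. It was thus the 1 member that lay between the 2-fold limits.

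Nrxn3, a presynaptic neurexin, stood at 14.7 CPM (59 UMIs) in Cox10-/- and 4.47 CPM (31 UMIs) in wild-type hepatocyte nuclei, a ratio of 3.29 (2.10 to 5.26). It was seen in 12 nuclei of each library. In the Cox10-/- library 6 nuclei with 5 or more UMIs held 84.7% of its UMIs, and all 6 lay in stellate-like clusters. In the wild-type library 3 such nuclei held 67.7%, and all 3 again lay in stellate-like clusters. In nuclei that met both criteria Nrxn3 stood at 0.793 CPM (3 UMIs) in Cox10-/- and 0.902 CPM (6 UMIs) in wild-type nuclei, so the higher value rested on those few nuclei.

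Of the receptor and channel genes, Grm8, a metabotropic glutamate receptor that lowers transmitter release, stood at 62.4 CPM (250 UMIs) in Cox10-/- and 191 CPM (1322 UMIs) in wild-type hepatocyte nuclei, 3.06-fold lower (2.67 to 3.51). It was detected in 8.59% of Cox10-/- and 39.2% of wild-type nuclei. In the Cox10-/- library its UMIs were concentrated: 12 nuclei with 5 or more UMIs held 46.0% of them, and 11 of the 12 lay in hepatocyte-like clusters. Cacna1d, the pore-forming subunit of an L-type calcium channel, stood at 6.24 CPM (25 UMIs) in Cox10-/- and 54.1 CPM (375 UMIs) in wild-type nuclei, 8.67-fold lower (5.78 to 13.6). Its Cox10-/- level was above the 2.60 CPM (4 UMIs) of Cox10-/- endothelial-like nuclei but not above the 6.68 CPM (5 UMIs) of myeloid-like nuclei. No expression is read from that level, and the fold only describes the counts. Its span overlaps Chdh on the other strand, which held 1633 UMIs in the same nuclei; whether counting used the strand is not given in the sources used here, so reads of the pair may not be told apart.

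Among the scaffold genes, Dlgap1, which links receptors to the postsynaptic density, stood at 54.2 CPM (217 UMIs) in Cox10-/- and 264 CPM (1830 UMIs) in wild-type hepatocyte nuclei, 4.88-fold lower (4.23 to 5.64). It was detected in 14.7% of Cox10-/- and 59.9% of wild-type nuclei, so the lower level went with fewer positive nuclei. Pclo, a large scaffold of the presynaptic active zone, stood at 4.74 CPM (19 UMIs) in Cox10-/- and 40.55 CPM (281 UMIs) in wild-type nuclei, 8.55-fold lower (5.37 to 14.4).

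Sntg1, a syntrophin that binds the dystrophin complex, stood at 35.7 CPM (143 UMIs) in Cox10-/- and 164 CPM (1137 UMIs) in wild-type hepatocyte nuclei, 4.597-fold lower (3.86 to 5.51). In the Cox10-/- library 7 of the 1001 nuclei held 74.8% of these UMIs, with up to 34 in 1 nucleus, and all 7 lay in stellate-like clusters. In the wild-type library 655 nuclei held it, none with more than 7 UMIs. In nuclei that met both criteria Sntg1 stood at 8.46 CPM (32 UMIs) in Cox10-/- and 165 CPM (1100 UMIs) in wild-type nuclei. Its level in Cox10-/- endothelial-like nuclei was 11.1 CPM, so the Cox10-/- value was not above that in another cell type and no fold is given.

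Srgap3, a regulator of the cytoskeleton downstream of Slit and Robo, stood at 1.75 CPM (7 UMIs in 3 nuclei) in Cox10-/- and 25.4 CPM (176 UMIs in 148 nuclei) in wild-type hepatocyte nuclei, 14.5-fold lower (6.91 to 36.7). In nuclei that met both criteria it stood at 0.528 CPM (2 UMIs) in Cox10-/- and 24.8 CPM (165 UMIs) in wild-type nuclei, a ratio of 0.0213 (0.00256 to 0.0782). Cox10-/- endothelial-like nuclei held 0 UMIs of Srgap3, which allows up to 1.95 CPM at 3 UMIs. The Cox10-/- hepatocyte levels were not above that, so no expression is read from them and the ratios only describe the counts. Rbfox1, a splicing regulator of neurons and muscle, stood at 5.24 CPM (21 UMIs) in Cox10-/- and 1.30 CPM (9 UMIs) in wild-type nuclei, a ratio of 4.04 (1.77 to 10.0). A single Cox10-/- nucleus in a stellate-like cluster held 16 of the 21 UMIs, and with both criteria Rbfox1 stood at 1.32 CPM in Cox10-/- and 1.35 CPM in wild-type nuclei.

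Under both criteria 6 genes were again at least 2-fold lower, beside 6.16% of 11221 genes tested, and none at least 2-fold higher, beside 8.73%, and Nrxn3 and Rbfox1 no longer reached 20 UMIs. The values just inside and just outside the Cps1 limit were as follows, over kept nuclei of every class. At 0.25 to 0.5% Cps1, Nrxn3 had 503 UMIs in Cox10-/- and 0 in wild-type nuclei. The libraries differed in their mix of cell types. Outside the Cps1 rule, kept stellate-like nuclei numbered 670 in the Cox10-/- and 1 in the wild-type library. Endothelial-like nuclei there numbered 599 in the Cox10-/- and 0 in the wild-type library. The part of this mix in the values of the band was not tested. For Dlgap1, nuclei with 0.5 to 1% Cps1 held 50.2 CPM in Cox10-/- and 274 CPM in wild-type nuclei, and nuclei with 0.25 to 0.5% held 20.3 CPM in Cox10-/- and 228 CPM in wild-type nuclei. For Sntg1, nuclei with 0.5 to 1% Cps1 held 57.85 CPM in Cox10-/- and 166 CPM in wild-type nuclei, and nuclei with 0.25 to 0.5% held 968 CPM in Cox10-/- and 156 CPM in wild-type nuclei.

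Counted per nucleus, 53.15% of Cox10-/- and 5.82% of wild-type hepatocyte nuclei held no UMI of any of the 9 genes, and 3.796% of Cox10-/- and 49.9% of wild-type nuclei held 3 or more of them. Because wild-type nuclei were deeper, each nucleus was also thinned to 1000 UMIs, which left out 28 Cox10-/- and 0 wild-type nuclei. After thinning, 77.3% of Cox10-/- and 38.5% of wild-type nuclei held none of the 9. Thinned shares of positive nuclei were 14.2% in Cox10-/- and 24.0% in wild-type nuclei for Ncam2, 3.91% in Cox10-/- and 23.7% in wild-type nuclei for Dlgap1, and 4.21% in Cox10-/- and 16.01% in wild-type nuclei for Grm8.

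Free RNA can give UMIs in nuclei that do not express a gene. Cox10-/- endothelial-like nuclei (599 nuclei, median 2503 UMIs) held Alb, a hepatocyte product, at 14909 CPM, beside 14836 CPM in Cox10-/- hepatocyte nuclei. Ncam2 in these endothelial-like nuclei was at 13.7 CPM, Dlgap1 at 3.26 CPM and Grm8 at 3.91 CPM. Beside these, Cox10-/- hepatocyte nuclei held Ncam2 at 197 CPM, Dlgap1 at 54.2 CPM and Grm8 at 62.4 CPM. Sntg1 in Cox10-/- hepatocyte nuclei that met both criteria, at 8.46 CPM and a thinned share of 0.651%, was not above its endothelial-like level of 11.1 CPM and 0.835%, so no expression is read from it; the part of free RNA was not tested. Pclo (1 UMI) and Cacna1d (4 UMIs) were also near the floor of 3 UMIs in endothelial-like nuclei. In the wild-type library other nuclei were few, and their values are given over all deposited nuclei. Ncam2 stood at 22.6 CPM in 45 endothelial-like, 192 CPM in 46 myeloid-like and 282.5 CPM in 18 lymphoid-like nuclei, beside 338 CPM in 4446 hepatocyte nuclei. Grm8 stood at 56.6 CPM in the endothelial-like, 144 CPM in the myeloid-like and 237.9 CPM in the lymphoid-like nuclei, beside 228 CPM in hepatocyte nuclei, so it was not below the hepatocyte level in all of them. Dlgap1 stood at 33.9 CPM in the endothelial-like, 82.5 CPM in the myeloid-like and 193 CPM in the lymphoid-like nuclei. It stood at 187 CPM in 34 wild-type stellate-like nuclei and at 255 CPM in hepatocyte nuclei. The part of free RNA in the wild-type values was not tested.

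Depth and mitochondrial share differed between the libraries, so the ratios were also taken within bands. Sntg1, Dlgap1, Srgap3, Pclo and Cacna1d were at least 2-fold lower in Cox10-/- nuclei in all 5 bands of mitochondrial share from 2.5 to 20% and in all 3 bands of UMIs per nucleus from 2000 up. The bands above 10% hold nuclei that the main limit removed, and nuclei under 2000 UMIs were not compared. Srgap3 was under the 20 UMI minimum at 2.5 to 5% (3 Cox10-/- and 10 wild-type UMIs) and at 8000 or more UMIs (0 and 13). At 15 to 20% the ratio intervals reached 0.709 for Srgap3 and 0.742 for Pclo. Dlgap1 was the steadiest, with log2 ratios of -2.56 to -2.16 over the mitochondrial bands. Grm8 was at least 2-fold lower in 4 of 5 mitochondrial bands and in 2 of 3 UMI bands; in nuclei with 8000 or more UMIs its ratio was 0.714 (0.538 to 0.949). Ncam2 was lower in every band, at least 2-fold in 3 of 5 mitochondrial bands and in 0 of 3 UMI bands.

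Several members followed liver zonation, a property that the choice of genes did not use. Hepatocyte nuclei of each library were ranked by the balance of pericentral and periportal marker genes and cut into tertiles, which are ranges of a score and not cell types; 12.5% of Cox10-/- and 10.3% of wild-type nuclei lay within 0.1 of a cut. Grm8 stood out as periportal in both libraries. In Cox10-/- nuclei it was at 134 CPM in the periportal, 6.20 CPM in the middle and 4.54 CPM in the pericentral tertile. In wild-type nuclei it was at 367 CPM in the periportal, 179 CPM in the middle and 44.0 CPM in the pericentral tertile. The periportal over pericentral ratio was 29.5 (12.5 to 91.8) in Cox10-/- and 8.35 (6.81 to 10.3) in wild-type nuclei. The Cox10-/- ratio rests on 5 pericentral UMIs, and the difference between the libraries was not tested.

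Ncam2 was at 324 CPM in the periportal and 68.1 CPM in the pericentral tertile of Cox10-/- nuclei (ratio 4.76, 3.735 to 6.14), and at 495.5 CPM in the periportal and 155 CPM in the pericentral tertile of wild-type nuclei (ratio 3.20, 2.84 to 3.61). Dlgap1 had a periportal over pericentral ratio of 3.13 (2.07 to 4.87) in Cox10-/- and 2.22 (1.97 to 2.498) in wild-type nuclei. For Cacna1d the ratio was 3.31 (0.947 to 17.7, on 19 UMIs in all) in Cox10-/- and 2.10 (1.60 to 2.76) in wild-type nuclei. Sntg1 and Pclo showed no zonal difference beyond counting error in wild-type nuclei, at 0.955 (0.826 to 1.10) and 1.14 (0.836 to 1.56), and Srgap3 was at 0.683 (0.443 to 1.04). In nuclei that met both criteria the Grm8 ratios were 31.9 (12.3 to 118) in Cox10-/- and 8.01 (6.52 to 9.94) in wild-type nuclei. Srgap3 in wild-type nuclei was then at 0.619 (0.393 to 0.959), lower in the periportal tertile (34 UMIs) than in the pericentral tertile (59 UMIs). Depth moved with the score in the Cox10-/- library, where median UMIs were 4878 in the periportal and 1911 in the pericentral tertile, against 4266 in the periportal and 4664 in the pericentral tertile of wild-type nuclei; its part in the Cox10-/- ratios was not tested.

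**Figure D2:**
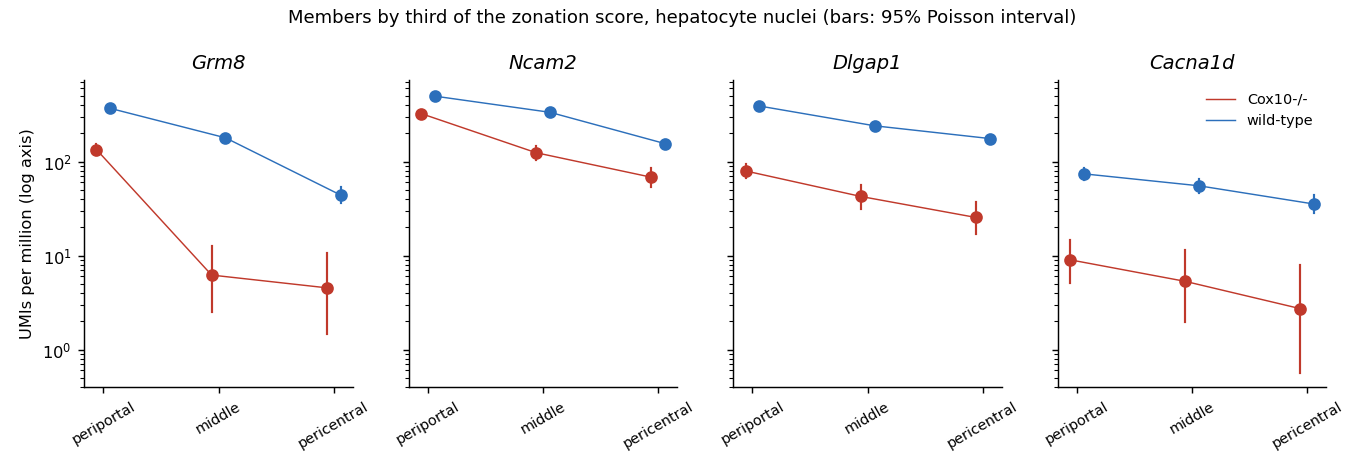
CPM (log axis) of Grm8, Ncam2, Dlgap1 and Cacna1d in the periportal, middle and pericentral tertiles of hepatocyte nuclei from the Cox10-/- library (red) and the wild-type library (blue); bars are 95% Poisson intervals. All 4 genes are highest in the periportal tertile of both libraries, and Grm8 in Cox10-/- nuclei is at 134 CPM there and under 7 CPM in the other tertiles.

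In single wild-type nuclei thinned to 1000 UMIs, Grm8-positive nuclei held Ncam2 and Dlgap1 more often than Grm8-negative nuclei did. Ncam2 was detected in 33.3% (27.3 to 39.8) of Grm8-positive and 22.2% (19.9 to 24.6) of Grm8-negative wild-type nuclei. Dlgap1 was detected in 32.0% (26.1 to 38.5) of Grm8-positive and 22.1% (19.8 to 24.6) of Grm8-negative wild-type nuclei. Dlgap1 was as frequent in Ncam2-positive nuclei (23.4%) as in Ncam2-negative nuclei (23.8%) within counting error. Only 41 Cox10-/- nuclei were Grm8-positive after thinning, too few to set these shares apart.

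The second pattern was in stellate-like nuclei, which carried all 15 stellate markers at a summed 10299 CPM, led by Reln at 4439 CPM. In the Cox10-/- library 670 such nuclei lay outside the Cps1 rule (median 2786 UMIs). They also held all 12 endothelial markers, at a summed 1049 CPM. Among the stellate-like clusters was 1 of 59 nuclei led by Tnxb, whose endothelial markers stood 1.479 log2 units up, just under the naming limit of 1.5. That cluster was unnamed at resolutions 0.5 and 2.0. Of the 8 genes that entered this comparison, 4 (Sntg1, Nrxn3, Rbfox1 and Cacna1d) were at least 2-fold higher in stellate-like than in hepatocyte nuclei, and 4 (Grm8, Dlgap1, Ncam2 and Pclo) at least 2-fold lower. Of 11361 genes tested, 19.4% were at least 2-fold higher and 19.8% at least 2-fold lower. This contrast too was used to choose the genes, and nothing is read from the counts.

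Sntg1 stood at 5706 CPM (11296 UMIs) in stellate-like and 35.7 CPM in hepatocyte nuclei of the Cox10-/- library, a ratio of 159.8 (135.5 to 189.9). It was detected in 93.0% of stellate-like nuclei, and 222 of the 670 held 20 or more of its UMIs. Nrxn3 stood at 3212 CPM (6359 UMIs) in stellate-like and 14.7 CPM in hepatocyte nuclei, a ratio of 218 (169 to 287), and was detected in 96.9% of stellate-like nuclei. Both genes were thus present in nearly every stellate-like nucleus. The sizes of these ratios depend on the hepatocyte rule, since nuclei in stellate-like clusters held most hepatocyte UMIs of both genes. With hepatocyte nuclei also in hepatocyte-like clusters, the log2 ratio was 9.37 for Sntg1, against 7.31 by the Cps1 rule. For Nrxn3 it was 11.70, against 7.75. The intervals do not cover this.

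Rbfox1 differed from them in its spread. It stood at 289.9 CPM (574 UMIs) in stellate-like and 5.24 CPM in hepatocyte nuclei, a ratio of 55.3 (35.8 to 90.1), but was detected in only 16.9% of stellate-like nuclei, with up to 42 UMIs in 1 nucleus. Of its 21 hepatocyte UMIs, 16 came from 1 nucleus in a stellate-like cluster, so the size of this ratio too depends on the hepatocyte rule. Cacna1d stood at 23.2 CPM (46 UMIs) in stellate-like and 6.24 CPM in hepatocyte nuclei, a ratio of 3.72 (2.24 to 6.32). Ncam2, at 14.1 CPM in stellate-like and 197 CPM in hepatocyte nuclei, was 13.9-fold lower (9.57 to 21.1), and Dlgap1, at 6.57 CPM in stellate-like and 54.2 CPM in hepatocyte nuclei, was 8.25-fold lower (4.72 to 15.7). Srgap3 had 0 UMIs in stellate-like nuclei, which allows up to 1.515 CPM at 3 UMIs, and 1.75 CPM in hepatocyte nuclei, so no fold is given.

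**Figure D3:**
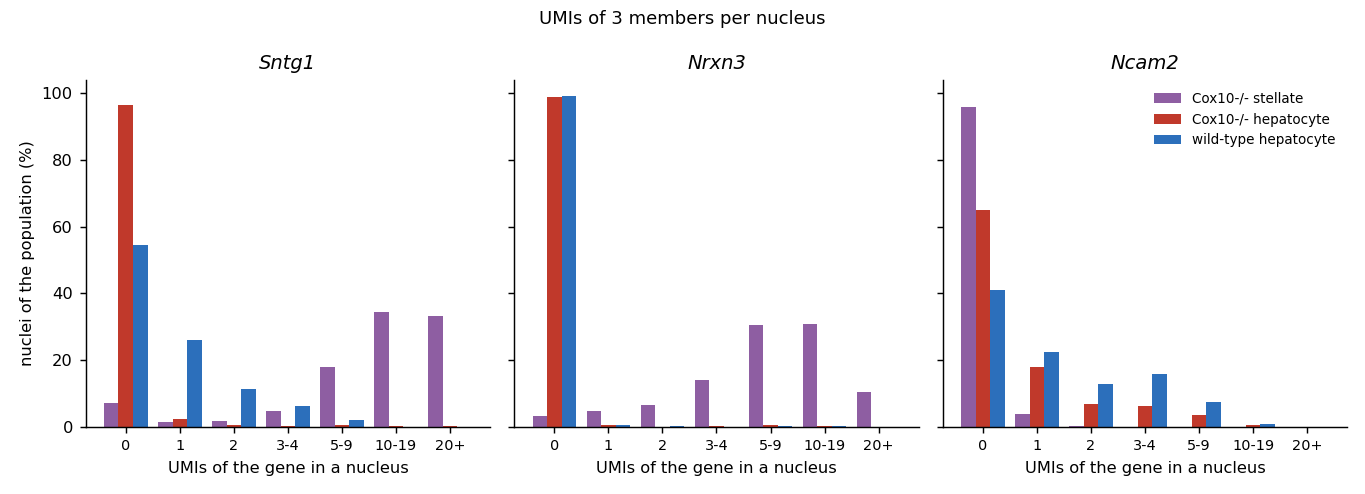
Share of nuclei (%) by the number of UMIs of Sntg1, Nrxn3 and Ncam2 they held, for Cox10-/- stellate-like nuclei (purple, 670 nuclei), Cox10-/- hepatocyte nuclei (red, 1001) and wild-type hepatocyte nuclei (blue, 1443). Sntg1 and Nrxn3 fill the high bins in stellate-like nuclei and Ncam2 is at 0 UMIs in 96.0% of them.

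The proportion of Sntg1 to Nrxn3 depended on how hepatocyte nuclei were taken. There were 1.78 Sntg1 UMIs per Nrxn3 UMI in Cox10-/- stellate-like nuclei (1.72 to 1.83). By the Cps1 rule the value was 2.42 (1.78 to 3.34) in Cox10-/- and 36.7 (25.7 to 54.2) in wild-type hepatocyte nuclei. With both criteria it was 10.7 (3.34 to 54.4) in Cox10-/- nuclei, on 3 Nrxn3 UMIs, and 183 (84.0 to 501) in wild-type nuclei, on 6 Nrxn3 UMIs. Wild-type stellate-like nuclei numbered 34 over all deposited nuclei, under the 50 set for a comparison. They held 58 Sntg1 and 102 Nrxn3 UMIs, beside 14159 Sntg1 and 7951 Nrxn3 UMIs in 884 Cox10-/- stellate-like nuclei over all deposited nuclei. Sntg1 stood at 572 CPM in these wild-type and 5286 CPM in these Cox10-/- nuclei, and Nrxn3 at 1006 and 2968 CPM. Sntg1 UMIs per Nrxn3 UMI were 0.569 (0.405 to 0.793) in the wild-type and 1.78 (1.73 to 1.83) in the Cox10-/- nuclei. This difference was not tested.

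Other nuclei of the Cox10-/- library added some further sites. Srgap3 stood at 65.5 CPM (48.4 to 86.6) in 268 myeloid-like nuclei, detected in 10.8% of them, and at 101 CPM (10 UMIs) in 41 lymphoid-like nuclei, against 1.75 CPM in Cox10-/- hepatocyte nuclei. When all deposited nuclei were clustered it stood lower in myeloid-like nuclei, at 29.9 CPM (22.7 to 38.5) and 5.52% of 725 nuclei, and at 95.3 CPM in 118 lymphoid-like nuclei. In a cluster of 13 unnamed nuclei led by Siglech, a sialic acid-binding receptor, and singled out after its values were seen, Grm8 was found in all 13, at 4658 CPM (4060 to 5319), and Srgap3 in all 13, at 940.1 CPM (683 to 1262). Cacna1d (142 CPM, 12 UMIs), Pclo (94.7 CPM, 8 UMIs) and Ncam2 (82.8 CPM, 7 UMIs) were found in 23 cholangiocyte-like nuclei, where Sntg1, Nrxn3, Grm8, Srgap3 and Rbfox1 were at 0 UMIs. Over all deposited nuclei the cholangiocyte-like nuclei numbered 194 and held Cacna1d at 32.8 CPM, Pclo at 34.0 CPM and Ncam2 at 52.2 CPM, and none of the other 6 genes was at 0 UMIs. The leading genes of these 194 included Areg, Pdk4 and Vmn2r3, which led a separate unnamed cluster of 91 Cox10-/- nuclei in the main clustering. The 194 and the 23 nuclei thus need not be the same population. The 478 CPM of Sntg1 in myeloid-like nuclei came almost wholly from 13 nuclei with 5 or more UMIs (98.9%), in which the stellate list stood at 6716 CPM, against 279 CPM in the other 255.

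**Figure D4:**
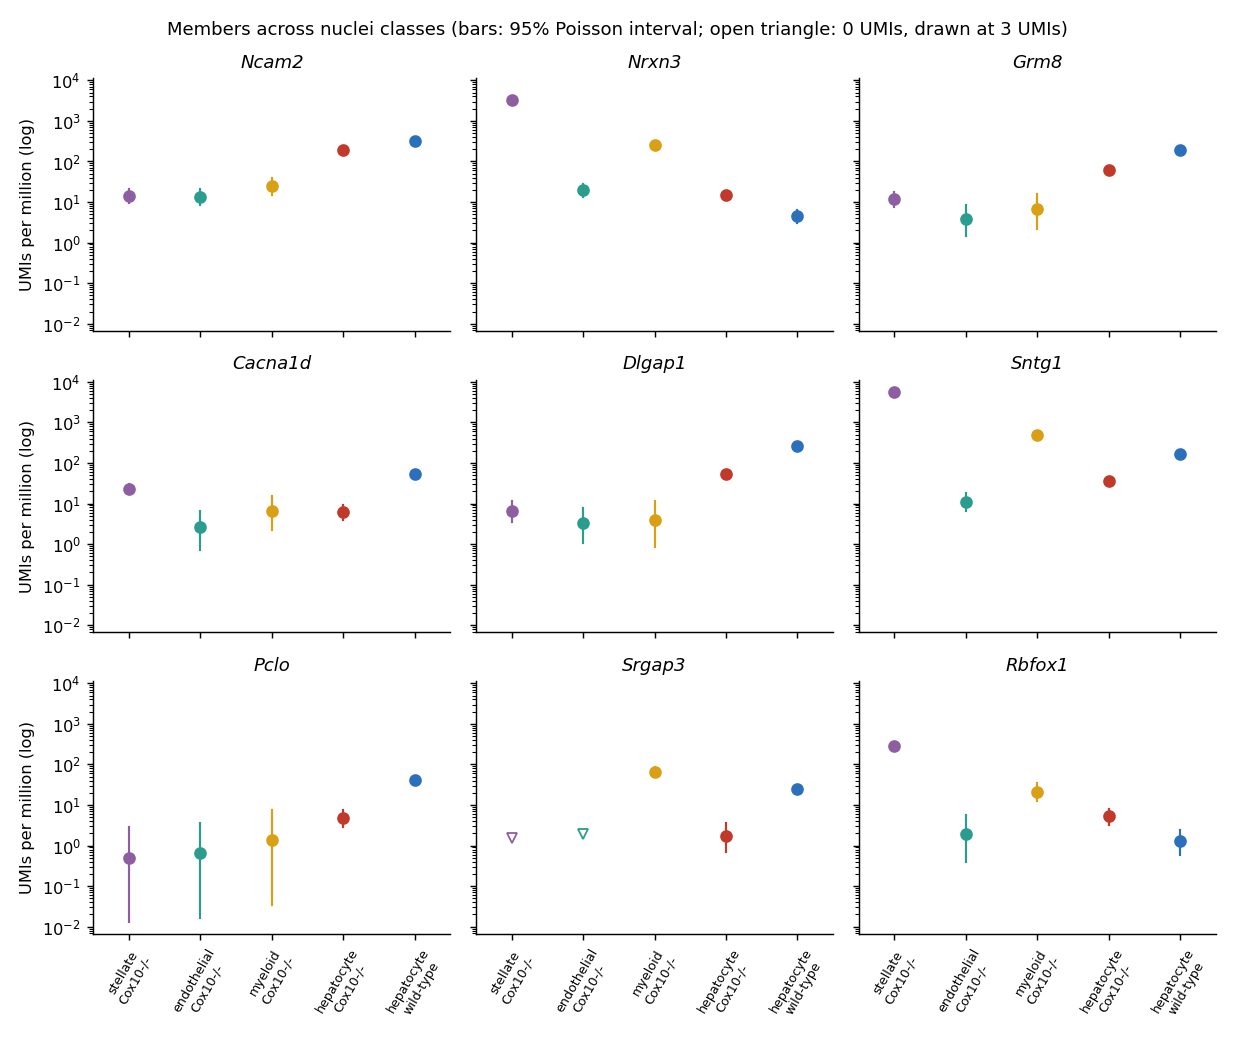
CPM (log axis) of each of the 9 genes in Cox10-/- stellate-like, endothelial-like, myeloid-like and hepatocyte nuclei and in wild-type hepatocyte nuclei, each with at least 50 nuclei; bars are 95% Poisson intervals, and open triangles mark 0 UMIs, drawn at the level of 3 UMIs. Sntg1, Nrxn3 and Rbfox1 are highest in stellate-like nuclei, Srgap3 is highest in myeloid-like nuclei, and the other 5 are highest in wild-type hepatocyte nuclei.

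The related genes were taken from 6 lists (adhesion, scaffolds, glutamate receptors, calcium channels, neural splicing factors and the Slit, Robo and srGAP group), 131 genes without the 9. Of these, 55 reached 20 UMIs in hepatocyte nuclei; 6 (10.9%) were at least 2-fold lower and 13 (23.6%) at least 2-fold higher in Cox10-/- than in wild-type nuclei, with a median log2 ratio of -0.01. Over all genes tested 5.80% were lower and 10.0% higher. By list, 0 of 13 adhesion genes were lower and 4 higher, 3 of 23 scaffold genes lower and 4 higher, 2 of 5 glutamate receptor genes lower and 0 higher, 0 of 4 calcium channel genes lower and 2 higher, 1 of 4 splicing factors lower and 0 higher, and 0 of 6 genes of the Slit group lower and 3 higher. These counts by list use the Cps1 rule alone. With both criteria 46 reached the minimum, of which 8 were lower and 6 higher, beside 6.16% lower and 8.73% higher over all genes tested. Cacna2d1, counted as higher on 11 Cox10-/- and 9 wild-type UMIs, then had 0 in both. Robo2 went from 37 Cox10-/- and 17 wild-type UMIs to 9 and 4. Sntg2, the closest relative of Sntg1, stood at 307 CPM in Cox10-/- and 929.8 CPM in wild-type nuclei, 3.03-fold lower (2.85 to 3.22). Celf2, an RNA-binding splicing regulator, stood at 37.7 CPM in Cox10-/- and 135 CPM in wild-type nuclei, 3.58-fold lower (3.01 to 4.28). The glutamate receptor genes Grm7 (5 UMIs in Cox10-/-, 39 in wild-type nuclei) and Grid1 (21 UMIs in Cox10-/-, 87 in wild-type nuclei) were also lower.

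Others of the same families stood higher in Cox10-/- hepatocyte nuclei. Sdk1, a synaptic adhesion molecule, was at 87.4 CPM in Cox10-/- and 5.63 CPM in wild-type nuclei, a ratio of 15.5 (11.1 to 22.2). Grip1, a receptor scaffold, was at 52.9 CPM in Cox10-/- and 5.77 CPM in wild-type nuclei, a ratio of 9.17 (6.515 to 13.2). Robo1, a receptor for Slit, was at 194.5 CPM in Cox10-/- and 25.25 CPM in wild-type nuclei, a ratio of 7.70 (6.53 to 9.125), and Rims2, an active zone protein, was at 47.2 CPM in Cox10-/- and 6.49 CPM in wild-type nuclei. With both criteria these ratios were 15.9 for Sdk1, 12.5 for Grip1, 8.33 for Robo1 and 7.74 for Rims2. Cacna1b had 22 UMIs in Cox10-/- and 0 in wild-type nuclei, at least 12.7-fold higher against a floor of 3 UMIs in the wild-type sum. Srgap1, a relative of Srgap3, had 24 UMIs in Cox10-/- and 2 in wild-type nuclei (ratio 20.8, 5.15 to 181), and with both criteria 6 UMIs in Cox10-/- and 1 in wild-type nuclei.

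Markers of nerve cells were scarce. Of 17 neuron markers, 14 (Snap25, Tubb3 and Elavl4 among them) were at 0 in both hepatocyte sums, and the rest was nearly all Syt1, at 74.1 CPM in Cox10-/- and 53.1 CPM in wild-type nuclei. The same 14 were at 0 in Cox10-/- stellate-like nuclei. Of 13 Schwann cell and glia markers, 7 in Cox10-/- and 8 in wild-type hepatocyte nuclei were at 0, Sox10 in both, and Erbb3 made up most of the sum, at 79.1 CPM in Cox10-/- and 116.5 CPM in wild-type nuclei.

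Values by gene span are given beside all genes tested, of which 5.80% were at least 2-fold lower and 10.0% at least 2-fold higher. Among 616 tested genes of 200 kb or more, all 9 members included, the median log2 ratio (Cox10-/- over wild-type) was -0.03. Of these 616, 6.33% were at least 2-fold lower and 19.2% at least 2-fold higher. At 200 to 400 kb 3.38% were lower and 16.4% higher, and at 400 to 800 kb 11.1% were lower and 23.6% higher. Among the 58 genes of 800 kb or more, which include Sntg1, Grm8, Dlgap1, Nrxn3 and Rbfox1, 15.5% were at least 2-fold lower and 27.6% at least 2-fold higher. The part of span in the ratios was not tested. The genes with the profile most like the mean of the 9 over 5 populations (Pearson r of log2(CPM + 1)) were Prkca (0.99), Sept9 (0.971), 4632427E13Rik (0.967), Stam (0.965), Cd82 (0.964), Atad1 (0.961), Lrrfip1 (0.947) and Cpeb1 (0.946). With 5 points that share libraries these values only describe the profiles.

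**Figure D5:**
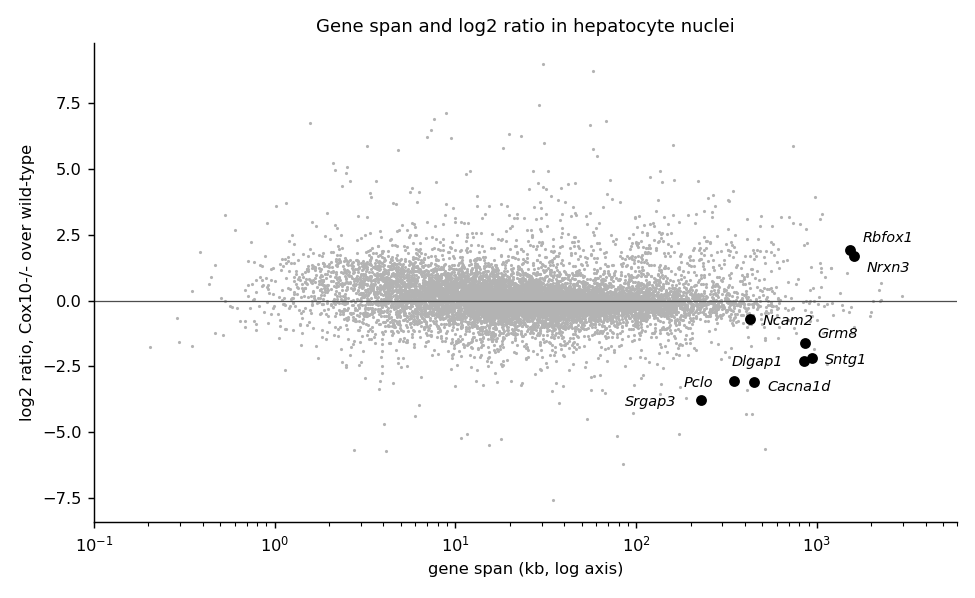
Log2 ratio of Cox10-/- over wild-type hepatocyte nuclei against gene span (kb, log axis) for the genes tested (grey) and the 9 members (black). The 9 lie among the longest genes, from 229 to 1612 kb, with Nrxn3 and Rbfox1 above 0 and the other 7 below it.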

How the data were processed

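Nuclear RNA of 1 Cox10-/- and 1 wild-type liver was measured. The deposited values are raw counts, UMIs per gene and nucleus, with no normalization by the authors, made with Cell Ranger 7.0 on mm10 per the submitters' processing notes. The sources used here do not give intron use, strand setting or annotation. Deposited nuclei held 601 to 3999 genes.

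Nuclei needed 500 UMIs, 300 genes and a mitochondrially encoded share of no more than 10%. Scrublet marked 14 Cox10-/- (0.271%) and 0 wild-type nuclei, too few to have worked, and none were removed. After scaling to 10000 per nucleus and a log transform, and without the 9 members, 2000 variable genes and 30 components gave 16 Leiden clusters at resolution 1.0 (scanpy 1.11.5). A non-hepatocyte cluster was named "-like" when its markers stood 1.5 log2 units above the mean of the other clusters for 1 class alone, with 3 or more markers detected and its top gene 8-fold up. A cluster was named hepatocyte-like when hepatocyte markers stood above that mean by any margin (0.130 to 1.215 log2 units in the 5 clusters named) and those of every other class less than 1 unit above it. These limits were set after the data were seen.

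UMIs were summed per class and library and given as CPM. Intervals at 95% are exact (Poisson for sums, Clopper-Pearson for shares, conditional binomial for ratios). Log2 ratios used a prior of 0.5 UMI. A count of 0 has a floor of 3 UMIs over the sum. A gene needed 20 UMIs in the pair of sums compared. The ratio code was tested on simulated data. Spans came from GENCODE M21, in which 31432 of 32286 symbols matched.

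The members, lists and rules were chosen with earlier results of these data known. Named were the 9 members, up to 4 genes per list with the largest log2 ratio, and the 8 genes of most similar profile. Of the alternatives, 5 were added after the data were seen.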

Additional observations from a re-analysis of the deposited data

How the results depend on the processing

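No paired analysis was possible because each group has 1 library. The number of members at least 2-fold lower in Cox10-/- hepatocyte nuclei was 6, and 5 to 7 under 14 alternatives (nuclei filters, hepatocyte rules, scaling, thinning and UMI minimum). It was 5 at up to 5% mitochondrially encoded UMIs, where Srgap3 fell under the UMI minimum, and 7, with Ncam2, at 5 to 10%. Sntg1, Grm8, Dlgap1, Pclo and Cacna1d stayed at least 2-fold lower under all 14. So did the Srgap3 ratio, but at up to 5% (log2 -3.62) it was under the UMI minimum and not counted. The genes were chosen on this contrast and the alternatives reuse the same libraries, so these counts are no independent check. A changed UMI minimum cannot move the ratio of a gene. The number higher in stellate-like nuclei was 4 under all 10 alternatives. These are not 10 separate checks: resolutions 0.5 and 2.0 and leaving out the Tnxb cluster each gave 611 stellate-like nuclei. The log2 ratios under these settings were also the same, at 7.38 for Sntg1 and 7.83 for Nrxn3. This contrast too was used to choose the genes.

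Nrxn3, at a log2 ratio of 1.70 (Cox10-/- over wild-type), was at -2.79 with Cps1 at 1% or more and at -0.17 in nuclei that also lay in hepatocyte-like clusters, a criterion chosen after seeing the data. Rbfox1, at 1.94, was at -0.03 under that criterion. Srgap3, at -3.52 for stellate-like over hepatocyte nuclei on 0 and 7 UMIs, was at 0.71 when stellate nuclei were taken by 3 UMIs over the stellate list. For Sntg1 the log2 ratio ran from -4.31 to -1.83, and was -4.27 with both criteria, on a Cox10-/- level not above that of endothelial-like nuclei. The cause was not tested for any of these. Srgap3, Rbfox1, Pclo and Cacna1d rest on at most 25 Cox10-/- UMIs.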
